A study of Mus musculus with 12 samples.

Results

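MLE12 cells given an shRNA against the long noncoding RNA LL34 were compared with MLE12 cells given the scrambled shRNA run beside it. The comparison took every probe set of the 6 arrays that the labels assign to LL34 targeting or LL34 control shRNA, 3 of each, out of 12 arrays in the series. The other 6 arrays hold cells given an shRNA against another long noncoding RNA, NANCI, or a second scrambled triplicate. Each of the 6 LL34 arrays measured 41345 probe sets, and 22180 named genes were each read by their brightest probe set with a single gene symbol. MLE12 is a mouse distal lung epithelial line from tumours of mice that carried the SV40 large T antigen under the human surfactant protein C promoter, so that all groups share this viral oncogene. Cells of both groups were grown in medium with insulin, transferrin, selenite, hydrocortisone and beta-estradiol to 60% confluency. They were infected for 12 hours, with polybrene, by lentivirus carrying a pLKO.1 shRNA plasmid, and were collected after 65 hours of subculture. The labels call the 3 cultures of a group biological replicates and do not say whether each was infected separately, so a p-value here reflects only how these arrays vary. The sources used here do not give the number or sequence of the LL34 hairpins. LL34 is not a name in the annotation used, so the targeted RNA itself was not analysed here and the knockdown could not be checked on the arrays.

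An shRNA is cut in the cell to a short interfering RNA that guides the cleavage of transcripts matching it. Long noncoding RNAs are transcripts without a protein product, and some of them act on genes near their own locus or on transcription factors. In the developing lung, retinoic acid made by aldehyde dehydrogenases and the transcription factors Nkx2-1, Foxa1 and Foxa2 are needed for the epithelium to form and to make surfactant. The series asks how such RNAs relate to transcription factors and to lung development, and this comparison asks which RNAs change in lung epithelial cells when LL34 is targeted.

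The third scrambled array stood apart from the others. Scrambled replicates 1 and 2 correlated with each other at r = 0.997, whereas replicate 3 correlated with them at 0.986 and 0.990. Scrambled replicates 1 and 2 correlated with the shRNA arrays at 0.989 to 0.991, and replicate 3 did so at 0.978 to 0.980. On scrambled replicate 3, 846 probe sets lay at least 1 log2 unit from the mean of the other 2 scrambled arrays, against 221 and 54 for scrambled replicates 1 and 2 and 32 to 45 for the shRNA arrays. Its 75th percentile of log2 signal was 8.50, against 8.65 to 8.71 on the other 5 arrays. The counts for most gene groups are therefore also given without this array. On the shRNA arrays 3590 probe sets had exactly equal values on at least 2 arrays, and 2712 did on the scrambled arrays, which can make the error of such a probe set too small. The scrambled arrays of the LL34 set also differed from those of the NANCI set, with 43.7% of genes called between them after quantile normalization over all 12 arrays. Many counts are therefore also given against all 6 scrambled arrays, pooled after that normalization. Whether scrambled replicate 3, tied values or the difference between the scrambled triplicates account for any change was not tested beyond these values.

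**Figure D1:**
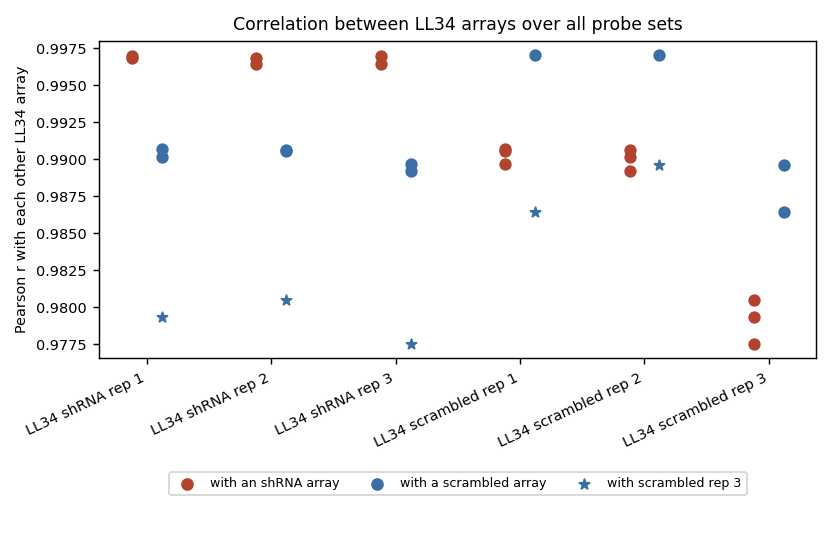
Pearson correlation (vertical axis) of each LL34 array (horizontal axis) with each other LL34 array over all 41345 probe sets. Red points are correlations with shRNA arrays, blue points with scrambled arrays and stars with scrambled replicate 3, whose correlations with the other scrambled arrays are 0.986 and 0.990.

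In cells given the LL34 shRNA, 4440 of 22180 named genes changed (20.0%), by limma on all 12 arrays with Benjamini-Hochberg adjusted p under 0.05. Of these, 2166 rose (9.77% of all genes) and 2274 fell (10.3%), and for 215 genes (0.969%) the log2 change was 1 or more. The median log2 change over all genes was −0.02. Without scrambled replicate 3, 4186 genes were called (18.9%), 1753 higher (7.90%) and 2433 lower (11.0%), and 3746 of the 4440 genes were again called in the same direction. Against all 6 scrambled arrays 3310 genes were called (14.9%), 1152 higher (5.19%) and 2158 lower (9.73%), and 2575 of the 4440 were again called in the same direction. Over all 41345 probe sets 6766 were called (16.4%), 4011 higher (9.70%) and 2755 lower (6.66%), and after quantile normalization over all 12 arrays the split was 3307 higher and 3463 lower. Probe sets with a log2 change of 1 or more were 1.44% of all, or 1.15% without scrambled replicate 3, and they differed by annotation. Among probe sets with a single gene symbol, 50 rose and 170 fell by at least 1 log2 unit. Among the 16010 probe sets without a symbol, 323 rose and 42 fell by as much, and without scrambled replicate 3 these counts were 166 and 49. Leaving out that array thus lowered the count of these rises, and the count without any other single array was not computed.

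Most of the retinoic acid genes that changed were lower with the LL34 shRNA, among them enzymes that make retinoic acid. Of 33 measured genes of the pathway, 2 rose and 9 fell, where 9.77% of all genes rose and 10.3% fell. Their median log2 change was −0.13, and the counts were the same without scrambled replicate 3. With all 6 scrambled arrays as control 0 rose and 7 fell. Among the 8 genes for synthesis 5 fell, among the 8 for storage and reduction of retinoids none changed at an adjusted p under 0.05, and among the 8 receptors and cofactors 1 rose and 2 fell. Aldh1a1 encodes a retinaldehyde dehydrogenase that carries out the last step of retinoic acid synthesis. Its log2 signals were 8.26, 8.41 and 8.11 with the shRNA and 11.18, 11.31 and 11.43 with the scrambled construct. It fell by 3.04 log2 units (SE 0.115, adjusted p = 3.32e-07), the largest fall of the named genes, which left 12.1% of the scrambled level, and the groups lay far apart. Aldh1a2, the main retinaldehyde dehydrogenase of the embryo, had log2 signals of 7.13, 6.92 and 7.02 with the shRNA and 8.23, 8.32 and 7.79 with the scrambled construct. The scrambled values varied more than those with the shRNA, with replicate 3 lowest, and the groups did not overlap. The log2 change of Aldh1a2 was −1.09 (SE 0.144, adjusted p = 0.000441). Aldh1a3, the third enzyme of this group, fell by 0.44 log2 units (adjusted p = 0.00387). Adh7, an alcohol dehydrogenase that oxidises retinol, had log2 signals of 9.33, 9.16 and 9.53 with the shRNA and 10.22, 10.12 and 10.17 with the scrambled construct and fell by 0.83 log2 units (adjusted p = 0.000159). Rdh10, the retinol dehydrogenase of the step before, fell by 0.31 log2 units (adjusted p = 0.0381). Aldh1a3 and Adh7 were not called against all 6 scrambled arrays, with log2 changes from −0.47 to −0.34.

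Some genes that retinoic acid acts through or that clear it also fell. Cyp26b1 encodes a cytochrome P450 that degrades retinoic acid and is itself induced by it in many tissues. Its log2 signals were 7.87, 7.63 and 8.03 with the shRNA and 8.85, 8.69 and 8.88 with the scrambled construct, without overlap, and it fell by 0.96 log2 units (SE 0.104, adjusted p = 0.000116). Cyp26a1 and Cyp26c1, the other degrading enzymes, measured log2 changes of −0.05 and −0.13 at signals near or below the array median of 6.58, and neither passed the test. Rarg, a retinoic acid receptor, had log2 signals of 7.86, 7.67 and 7.81 with the shRNA and 8.38, 8.36 and 8.48 with the scrambled construct. All 3 shRNA values of Rarg lay below all scrambled values, and the log2 change was −0.62 (SE 0.0750, adjusted p = 0.000234). Rara fell by 0.28 log2 units (adjusted p = 0.0475), whereas Rarb measured −0.32 (adjusted p = 0.0919) and Rxra 0.15 (adjusted p = 0.263). Ncoa1, a coactivator of nuclear receptors, rose by 0.56 log2 units (adjusted p = 0.00145). Among genes known to respond to retinoic acid, Tgm2, a transglutaminase, fell by 0.46 log2 units (adjusted p = 0.0138) and the homeobox gene Hoxa5 rose by 0.75 (adjusted p = 0.00164), while Hoxb5, Stra8 and Rarres1 measured −0.11, 0.03 and 0.11 and did not pass. Rara was not called without shRNA replicates 2 or 3 or scrambled replicates 1 or 2 (adjusted p from 0.0925 to 0.183), Rdh10 not without shRNA replicates 1, 2 or 3 or scrambled replicate 3 (adjusted p from 0.0859 to 0.110) and Tgm2 not without shRNA replicate 1 or scrambled replicate 2 (adjusted p from 0.0540 to 0.0630). Rarg, Ncoa1 and Hoxa5 were not called against all 6 scrambled arrays, with log2 changes from −0.46 to 0.35.

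Transcription factors of the lung epithelium moved in both directions, with the falls larger. Of 32 measured factors 5 rose and 11 fell (median log2 change −0.05), with the same counts without scrambled replicate 3. With all 6 scrambled arrays as control 0 rose and 10 fell. Foxa1 encodes a forkhead pioneer factor that opens chromatin in endoderm and is expressed through the lung epithelium. Its log2 signals were 9.24, 9.08 and 9.21 with the shRNA and 10.53, 10.63 and 10.48 with the scrambled construct. The groups were separated by more than 1 log2 unit, and Foxa1 fell by 1.37 (SE 0.0698, adjusted p = 1.20e-06) to 38.8% of the scrambled level. Foxa2, its close relative, had log2 signals of 9.33, 9.44 and 9.41 with the shRNA and 9.70, 9.76 and 9.88 with the scrambled construct and fell by 0.39 log2 units (adjusted p = 0.00270). The forkhead factors Foxp1 and Foxp4, which act together in the lung epithelium, fell by 0.46 and 0.53 log2 units (adjusted p = 0.000645 and 0.000586). Foxp2 of the same family measured 0.32 (adjusted p = 0.0540). Nkx2-1, the homeodomain factor of lung identity, had log2 signals of 10.39, 10.38 and 10.39 with the shRNA and 10.73, 10.74 and 10.49 with the scrambled construct, so that scrambled replicate 3 lay nearest to the shRNA arrays. Its log2 change was −0.27 (adjusted p = 0.0327), or −0.35 without that array (adjusted p = 0.00301). Nkx2-1 was not called without shRNA replicates 1, 2 or 3 or scrambled replicates 1 or 2 (adjusted p from 0.0862 to 0.119). Foxa2 was not called against all 6 scrambled arrays, with a log2 change of −0.30.

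Other factors fell as well. Sox4, an HMG-box factor of progenitor cells, had log2 signals of 9.06, 9.19 and 9.02 with the shRNA and 10.39, 10.50 and 10.35 with the scrambled construct, a fall of 1.32 log2 units (SE 0.0643, adjusted p = 9.14e-07) without overlap. A second, dimmer Sox4 probe set measured −0.27 (adjusted p = 0.326). Gata6, a zinc-finger factor needed for the lung epithelium to differentiate, had log2 signals of 11.28, 11.26 and 11.29 with the shRNA and 11.76, 11.88 and 11.80 with the scrambled construct. These values hardly varied within a group, and Gata6 fell by 0.54 log2 units (SE 0.0598, adjusted p = 0.000148). Klf4 and Id2, the latter a marker of the distal lung tip, fell by 0.42 and 0.71 log2 units (adjusted p = 0.000411 and 0.000598). Id2 measured −0.08 against all 6 scrambled arrays (adjusted p = 0.893). Nfib and Nfia, nuclear factor I proteins that drive lung maturation, fell by 0.44 and 0.32 log2 units (adjusted p = 0.000825 and 0.0261). Grhl1, a grainyhead factor of epithelia, rose by 0.72 log2 units, the ETS factor Etv5 by 0.57, Cebpa by 0.56, Klf5 by 0.39 and Irx2 by 0.31 (adjusted p from 0.000125 to 0.0351). None of these 5 rises was called against all 6 scrambled arrays, where Klf5 and Irx2 both measured −0.07. Sox9, the distal tip factor, measured 0.12 (adjusted p = 0.482), and the proximal airway factors Sox2 and Foxj1 measured 0.21 and −0.02 at signals below the array median. Nfia was not called without shRNA replicates 1 or 3 or scrambled replicates 1 or 2 (adjusted p from 0.0565 to 0.110) and Irx2 not without shRNA replicates 1 or 3 or scrambled replicates 1 or 2 (adjusted p from 0.0886 to 0.128).

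**Figure D2:**
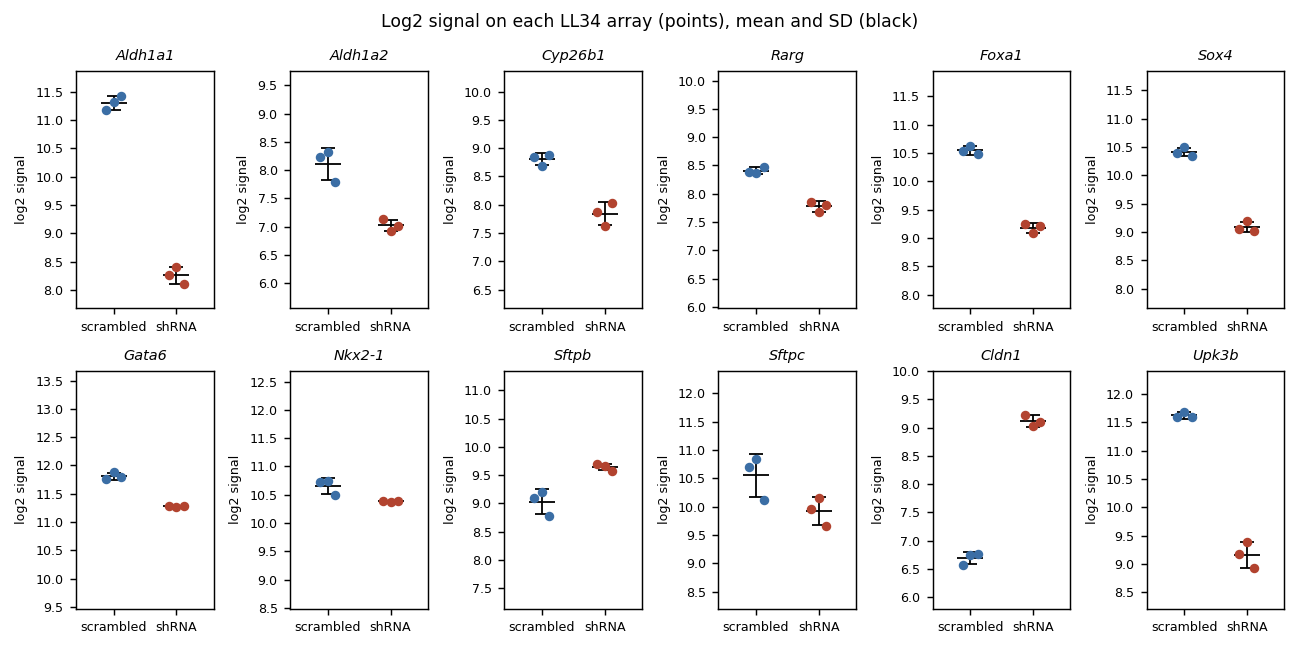
Log2 signal (vertical axis, each panel spanning the same range of log2 units) on the 3 scrambled arrays (blue) and the 3 shRNA arrays (red) for 12 genes, with the group mean and SD in black. Aldh1a1, Foxa1, Sox4 and Upk3b are lower on every shRNA array, Cldn1 and Sftpb are higher on every one, and the groups of Sftpc overlap.

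Surfactant genes showed no common direction. Type 2 cells of the alveolus make surfactant and are the cell type from which this line takes its identity. Of 21 measured type 2 genes 2 rose and 3 fell (23.8% called, near the 20.0% of all genes, median log2 change −0.08). The counts were the same without scrambled replicate 3, and against all 6 scrambled arrays 0 rose and 1 fell. Sftpb encodes a surfactant protein needed for breathing at birth. Its log2 signals were 9.69, 9.66 and 9.58 with the shRNA and 9.09, 9.21 and 8.78 with the scrambled construct, without overlap, a rise of 0.62 log2 units (adjusted p = 0.00504) that measured 0.26 against all 6 scrambled arrays (adjusted p = 0.337). Sftpc, whose human promoter drives the oncogene of this line, had log2 signals of 9.96, 10.16 and 9.66 with the shRNA and 10.70, 10.84 and 10.12 with the scrambled construct. Scrambled replicate 3 lay within the range of the shRNA arrays, so the groups overlapped, and the log2 change was −0.62 (adjusted p = 0.0392), −0.84 without that array (adjusted p = 0.00302) and −0.13 against all 6 scrambled arrays (adjusted p = 0.796). Ctsh, a cathepsin that cuts surfactant proprotein, fell by 0.54 log2 units (adjusted p = 0.0265). Scd1, the desaturase that makes monounsaturated fatty acids, fell by 0.51 (adjusted p = 0.0111). Abca3, the lipid transporter of lamellar bodies, and Lpcat1, an enzyme of surfactant phospholipid, measured −0.14 and −0.04 (adjusted p = 0.204 and 0.795). Signals differed widely among the 21 genes, with log2 means on the scrambled arrays of up to 12.04, and of 10.55 for Sftpc. Other markers of mature type 2 cells lay below the array median of 6.58. Their means on the scrambled arrays were 4.89 for Lamp3, 5.28 for Slc34a2, 5.99 for Sftpa1, 6.12 for Sftpd and 6.19 for Napsa. Of all values, 25% lay below 5.25. The files hold no detection call, so presence of the RNAs at low signal was not tested. Sftpc was not called without shRNA replicates 1 or 3 or scrambled replicates 1 or 2 (adjusted p from 0.0912 to 0.155) and Ctsh not without shRNA replicates 1 or 3 or scrambled replicates 1 or 2 (adjusted p from 0.0691 to 0.105). Scd1 was not called against all 6 scrambled arrays, with a log2 change of −0.31.

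Genes of alveolar type 1 cells, the flat cells of gas exchange, were lower. Of 20 measured, 10 fell and 1 rose (55.0% called, against 20.0% of all genes, median log2 change −0.23). Without scrambled replicate 3, 11 fell and none was called higher, and against all 6 scrambled arrays 10 fell and none was called higher, the median then being −0.41. With the NANCI shRNA 12 of the 20 fell and 1 rose (median log2 change −0.42), so lower type 1 genes were not particular to LL34. Where the LL34 and NANCI changes differed, the LL34 change was above in 7 genes and below in 5. In bulk cells, fewer cells of a type and less RNA per cell cannot be told apart. Cav1, the structural protein of caveolae, had log2 signals of 10.20, 9.85 and 10.01 with the shRNA and 11.22, 11.25 and 11.07 with the scrambled construct and fell by 1.16 log2 units (SE 0.0874, adjusted p = 1.06e-05). S100a6, a calcium-binding protein, had log2 signals of 10.54, 10.60 and 10.66 with the shRNA and 11.71, 11.83 and 11.71 with the scrambled construct and fell by 1.15 log2 units (adjusted p = 1.21e-05). In both genes every shRNA array lay below every scrambled array. Pdpn, the surface mucin podoplanin by which type 1 cells are often recognised, fell by 0.67 log2 units (adjusted p = 8.86e-05). Aqp5, the water channel of type 1 cells, had log2 signals of 11.45, 11.47 and 11.43 with the shRNA and 12.01, 12.00 and 12.16 with the scrambled construct and fell by 0.61 log2 units (adjusted p = 0.000371). Ahnak, a large scaffold protein, fell by 0.51 and Igfbp2, an IGF-binding protein, by 1.00 log2 units (adjusted p = 9.22e-05 and 0.000549).

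Junction genes moved both ways. Of 29 measured junction and keratin genes 4 rose and 7 fell (37.9% called, against 20.0% of all genes). The counts were 3 and 7 without scrambled replicate 3. Among 10 genes of adherens junctions and desmosomes 1 rose and 5 fell (0 and 5 without that array), and among 13 of tight junctions 3 rose and none fell at an adjusted p under 0.05. Cldn1, a sealing claudin of tight junctions, had log2 signals of 9.22, 9.02 and 9.10 with the shRNA and 6.58, 6.75 and 6.77 with the scrambled construct. Its rise of 2.41 log2 units (SE 0.0952, adjusted p = 3.32e-07) came without overlap, and against all 6 scrambled arrays it was 1.53 (adjusted p = 0.0195). Cldn12, another claudin, had log2 signals of 10.15, 10.11 and 10.10 with the shRNA and 9.34, 9.21 and 9.22 with the scrambled construct and rose by 0.86 log2 units (adjusted p = 1.01e-05). Dsp, the plakin that ties desmosomes to keratin, had log2 signals of 9.69, 9.75 and 9.67 with the shRNA and 10.51, 10.61 and 10.35 with the scrambled construct and fell by 0.78 log2 units (adjusted p = 6.08e-05). Jup, the desmosomal catenin plakoglobin, fell by 0.59 log2 units (adjusted p = 0.000339). Krt19, a keratin of simple epithelia, had log2 signals of 10.36, 10.31 and 10.24 with the shRNA and 11.57, 11.49 and 11.30 with the scrambled construct and fell by 1.15 log2 units (adjusted p = 5.95e-06), and Krt8 fell by 0.67 (adjusted p = 0.000344). Uroplakins are membrane plaque proteins first known from bladder epithelium, and of the 5 measured 2 fell and none rose. Upk3b, which also marks mesothelium, had log2 signals of 9.18, 9.39 and 8.93 with the shRNA and 11.59, 11.69 and 11.59 with the scrambled construct and fell by 2.46 log2 units (SE 0.133, adjusted p = 1.71e-06). Upk1b, a tetraspanin uroplakin, had log2 signals of 7.51, 7.74 and 7.41 with the shRNA and 9.32, 9.27 and 8.95 with the scrambled construct and fell by 1.63 log2 units (adjusted p = 6.15e-06). No array of the shRNA group reached a scrambled array in either gene. Krt8 was not called against all 6 scrambled arrays, with a log2 change of −0.42.

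The amino acid response held the most rises of the gene groups described here. When amino acids are short or proteins misfold, kinases phosphorylate the initiation factor eIF2, translation of the transcription factor ATF4 increases, and ATF4 with C/EBP partners switches on amino acid transporters and synthesis enzymes. Of 38 measured genes of this response 25 rose and 6 fell (81.6% called, against 20.0% of all genes, median log2 change 0.63). The counts were 26 and 6 without scrambled replicate 3. Against all 6 scrambled arrays 3 rose and 5 fell (median 0.26), and the scrambled arrays of the LL34 set lay a median of 0.64 log2 units below those of the NANCI set in these genes. Whether the low level in this scrambled triplicate accounts for the rises was not tested. ATF4 binds a composite element, searched here on both strands as TGATGNAA in the 250 bases before each RefSeq start. It was found in 9 of 42 promoters of the group (21.4%) and in 3.40% of all 32544 promoters. The promoters of 4 of the genes with the largest rises among those holding the element are shown for that reason, 5′ to 3′ on the strand of the gene, from RefSeq on GRCm38.p6, with the element in capitals.
Chac1, chr2:119350992-119351241, plus strand: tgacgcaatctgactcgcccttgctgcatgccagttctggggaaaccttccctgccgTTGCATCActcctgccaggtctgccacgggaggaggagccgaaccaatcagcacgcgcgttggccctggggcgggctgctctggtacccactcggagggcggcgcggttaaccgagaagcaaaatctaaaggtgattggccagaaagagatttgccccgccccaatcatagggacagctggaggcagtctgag
Slc7a11, chr3:50443614-50443863, minus strand: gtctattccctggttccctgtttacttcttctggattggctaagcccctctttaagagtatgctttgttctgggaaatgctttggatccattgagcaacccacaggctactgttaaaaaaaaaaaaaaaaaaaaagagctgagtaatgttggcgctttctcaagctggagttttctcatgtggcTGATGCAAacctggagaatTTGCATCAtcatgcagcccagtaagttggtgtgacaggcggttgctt
Nupr1, chr7:126625471-126625720, minus strand: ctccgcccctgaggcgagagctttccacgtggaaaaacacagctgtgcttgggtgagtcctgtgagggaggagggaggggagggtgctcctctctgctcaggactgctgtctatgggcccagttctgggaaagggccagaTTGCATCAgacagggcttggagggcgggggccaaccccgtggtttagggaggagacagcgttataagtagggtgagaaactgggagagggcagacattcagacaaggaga
Vldlr, chr19:27216770-27217019, plus strand: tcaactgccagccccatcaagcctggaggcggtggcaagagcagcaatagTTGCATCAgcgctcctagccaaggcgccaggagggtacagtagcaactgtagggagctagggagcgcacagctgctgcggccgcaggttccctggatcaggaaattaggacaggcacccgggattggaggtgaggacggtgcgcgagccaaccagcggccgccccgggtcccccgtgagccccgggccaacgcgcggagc
The element lay 193 bases before the start in Chac1, 110 in Nupr1 and 200 in Vldlr, and Slc7a11 held it in both orientations, 66 and 47 bases before the start. A match of letters is a description and no binding site. The genes were listed as members of this response, so the shares of promoters describe the list and not these arrays. The element was also held by Asns, which rose, by Atf3 and Slc7a7, which fell, and by Fgf21, which measured 0.04 (adjusted p = 0.897).

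Genes with the element did not all move the same way, and those shown were chosen for their large rises. Chac1, which degrades glutathione, had log2 signals of 10.12, 10.18 and 10.34 with the shRNA and 8.58, 8.54 and 8.40 with the scrambled construct, a rise of 1.71 log2 units (SE 0.0836, adjusted p = 9.14e-07). Slc7a11, the exchanger that brings in cystine, had log2 signals of 11.42, 11.42 and 11.42 with the shRNA and 9.70, 9.58 and 9.95 with the scrambled construct. The 3 shRNA values were equal to the second decimal, with tied values among them, and the rise was 1.68 log2 units (adjusted p = 6.92e-06). A second, dim Slc7a11 probe set measured 0.28 (adjusted p = 0.112). Nupr1, a stress-induced chromatin protein, had log2 signals of 10.68, 10.67 and 10.60 with the shRNA and 9.37, 9.37 and 9.08 with the scrambled construct and rose by 1.38 log2 units (adjusted p = 2.27e-05). Vldlr, a lipoprotein receptor induced by this response, had log2 signals of 11.00, 11.09 and 10.97 with the shRNA and 9.35, 9.36 and 9.12 with the scrambled construct and rose by 1.74 log2 units (adjusted p = 4.09e-07). In these 4 genes no shRNA array overlapped a scrambled array, and against all 6 scrambled arrays the changes were 0.59, 0.77, 0.75 and 1.00, none called.

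All 8 measured enzymes of serine, glycine and folate metabolism rose, also without scrambled replicate 3, and none of them was called against all 6 scrambled arrays. These enzymes build serine from a glycolytic intermediate and pass its carbon to folate. Phgdh, the first enzyme of serine synthesis, had log2 signals of 10.17, 10.24 and 10.24 with the shRNA and 9.05, 9.12 and 9.08 with the scrambled construct and rose by 1.13 log2 units (adjusted p = 3.40e-06). Psat1 and Psph, the next steps, rose by 0.66 and 1.33 log2 units (adjusted p = 2.28e-05 and 4.09e-07). Aldh1l2, a mitochondrial formyl-folate dehydrogenase, had log2 signals of 11.19, 11.26 and 11.13 with the shRNA and 9.05, 9.13 and 9.06 with the scrambled construct and rose by 2.11 log2 units (SE 0.0910, adjusted p = 4.09e-07), and measured 1.20 against all 6 scrambled arrays (adjusted p = 0.104). Mthfd2, a mitochondrial folate enzyme, had log2 signals of 11.78, 11.74 and 11.63 with the shRNA and 10.58, 10.65 and 10.61 with the scrambled construct and rose by 1.10 log2 units (adjusted p = 1.17e-06), and Shmt2, which splits serine to glycine, rose by 0.25 (adjusted p = 0.0393). Shmt2 was not called without shRNA replicates 1 or 3 or scrambled replicates 1 or 2 (adjusted p from 0.0905 to 0.147).

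Among 11 regulators 7 rose and 1 fell. Atf4 itself had log2 signals of 10.65, 10.57 and 10.61 with the shRNA and 10.07, 9.97 and 10.05 with the scrambled construct, a rise of 0.58 log2 units (SE 0.0560, adjusted p = 5.47e-05). That rise held against all 6 scrambled arrays (0.43, adjusted p = 0.00615). Trib3, a pseudokinase that restrains ATF4, had log2 signals of 9.75, 9.65 and 9.75 with the shRNA and 8.10, 7.89 and 7.98 with the scrambled construct and rose by 1.73 log2 units (adjusted p = 3.32e-07). Ddit3, the CHOP factor of prolonged stress, had log2 signals of 10.47, 10.42 and 10.44 with the shRNA and 9.38, 9.28 and 9.31 with the scrambled construct and rose by 1.12 log2 units (adjusted p = 3.84e-06). Atf5 had log2 signals of 9.20, 9.13 and 9.29 with the shRNA and 7.73, 7.85 and 8.29 with the scrambled construct, with scrambled replicate 3 nearest to the shRNA arrays, and it rose by 1.25 (adjusted p = 0.000178). It turned to −0.11 against all 6 scrambled arrays (adjusted p = 0.924). Cebpg, a C/EBP partner of ATF4, rose by 0.76 log2 units (adjusted p = 1.12e-05), and Atf3, a stress factor that usually rises with ATF4, fell by 0.49 (adjusted p = 0.000481). The eIF2 kinases Eif2ak3 and Eif2ak4 measured 0.04 and 0.23 and did not pass the test. Among 9 transporters 5 rose and 3 fell. Slc7a1, for cationic amino acids, rose by 1.05 log2 units, Slc1a4, for neutral ones, by 0.93, and Slc7a5 and Slc3a2, the chains of a leucine transporter, by 0.77 and 0.54 (adjusted p from 1.29e-06 to 4.78e-05). Slc1a5, a glutamine transporter, fell by 0.31 log2 units, Slc7a3 by 0.36 and Slc7a7 by 0.43 (adjusted p from 0.0109 to 0.0425). Another Slc1a5 probe set measured −0.14 (limma adjusted p = 0.560). Asns, asparagine synthetase, had log2 signals of 12.69, 12.67 and 12.68 with the shRNA and 11.86, 11.85 and 11.97 with the scrambled construct and rose by 0.79 log2 units (adjusted p = 3.92e-06), also against all 6 scrambled arrays (0.59, adjusted p = 0.00740). Cth, which makes cysteine, had log2 signals of 8.57, 8.55 and 8.64 with the shRNA and 7.42, 7.07 and 6.88 with the scrambled construct and rose by 1.46 log2 units (adjusted p = 1.46e-05), again also against all 6 (1.00, adjusted p = 0.00441). Slc1a5 was not called without shRNA replicates 1, 2 or 3 or scrambled replicates 1 or 2 (adjusted p from 0.0735 to 0.146) and Slc7a7 not without shRNA replicates 2 or 3 or scrambled replicates 1 or 2 (adjusted p from 0.0612 to 0.0733). Trib3, Ddit3, Cebpg, Slc7a1, Slc1a4, Slc7a5, Slc3a2 and Slc7a3 were not called against all 6 scrambled arrays, with log2 changes from −0.23 to 0.64.

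Aminoacyl-tRNA synthetases, which charge tRNAs and of which the cytosolic ones are targets of ATF4, were called higher more often than lower. Of 17 cytosolic synthetases 10 rose and 1 fell (64.7% called, against 20.0% of all genes). Of 16 mitochondrial ones 4 rose and 1 fell (31.2% called). Without scrambled replicate 3 the counts were 10 and 3 among cytosolic and 2 and 1 among mitochondrial synthetases, and against all 6 scrambled arrays 1 and 0 among cytosolic and 1 and 2 among mitochondrial ones. Cars, the cysteine enzyme, had log2 signals of 10.55, 10.54 and 10.59 with the shRNA and 9.86, 9.78 and 9.64 with the scrambled construct and rose by 0.80 log2 units (adjusted p = 1.86e-05). Yars rose by 0.73, Sars by 0.71, Eprs by 0.54, Gars by 0.50 and Iars by 0.50 log2 units (adjusted p at most 8.12e-05), and Sars alone of these 6 was called against all 6 scrambled arrays (0.47, adjusted p = 0.0381). Gars, and among the other synthetases Tars, held TGATGNAA before the start, 2 of 26 promoters of the group (7.69%).

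Of 25 genes of protein folding in the endoplasmic reticulum and of its stress response 7 rose and 2 fell (median log2 change 0.06), with the same counts without scrambled replicate 3. The share called was 36.0%, against 20.0% of all genes. The means of these genes on the scrambled arrays ran from 6.56 to 12.96, where the array median was 6.58. All genes include many dim ones, and the share among genes of like signal was not computed. Among its 14 chaperones 4 rose and 1 fell (median log2 change 0.10), with changes from −0.42 to 0.46. Herpud1, a stress-induced protein of the degradation complex, had log2 signals of 11.86, 11.91 and 11.85 with the shRNA and 11.15, 11.16 and 11.13 with the scrambled construct and rose by 0.73 log2 units (adjusted p = 5.66e-06), and measured 0.36 against all 6 scrambled arrays (adjusted p = 0.248). Sel1l, its partner in the complex, rose by 0.38 and Dnajb11, a co-chaperone, by 0.46 log2 units (adjusted p = 0.000622 and 0.00227), both also called against all 6. Pdia3, a disulfide isomerase, fell by 0.42 log2 units (adjusted p = 0.00195). Dnajb9 rose by 0.41 and Atf6, a sensor of unfolded protein, by 0.37 (adjusted p = 0.00464 and 0.00326). Atf6 was not called against all 6 scrambled arrays, with a log2 change of 0.18.

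Antioxidant genes of the NRF2 pathway fell. NRF2, encoded by Nfe2l2, is held in the cytoplasm by Keap1 and released under oxidative stress, when it binds antioxidant elements with small Maf proteins. Of 32 measured genes 21 fell and 2 rose (71.9% called, against 20.0% of all genes, median log2 change −0.51). The counts were 20 and 2 without scrambled replicate 3. Against all 6 scrambled arrays 10 fell and 2 rose (median −0.29), and the scrambled arrays of the LL34 set lay a median of 0.48 log2 units above those of the NANCI set in these genes. Whether the high level in this scrambled triplicate accounts for the falls was not tested. The element was searched on both strands as TGACNNNGC and lay in 7 of 35 promoters of the group (20.0%) and in 10.2% of all promoters. These shares too describe the list and not these arrays. Of the 7 genes that held the element 5 fell, 1 rose (Mafg, a small Maf partner, by 0.32) and 1 (Maff) measured −0.05 and did not pass. The promoter of Txnrd1, thioredoxin reductase, had the smallest p of the 7 and is shown with its match in capitals, 92 bases before the start.
Txnrd1, chr10:82858956-82859205, plus strand: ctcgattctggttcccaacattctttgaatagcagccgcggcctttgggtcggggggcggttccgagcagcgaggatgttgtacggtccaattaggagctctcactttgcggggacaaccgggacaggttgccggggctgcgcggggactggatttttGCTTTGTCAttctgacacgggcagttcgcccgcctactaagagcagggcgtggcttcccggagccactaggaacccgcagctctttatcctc
Txnrd1 had log2 signals of 11.50, 11.51 and 11.49 with the shRNA and 12.09, 12.10 and 12.18 with the scrambled construct, without overlap, and fell by 0.63 log2 units (SE 0.0491, adjusted p = 1.43e-05), and measured −0.23 against all 6 scrambled arrays (adjusted p = 0.480).

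Nfe2l2 had log2 signals of 12.31, 12.26 and 12.22 with the shRNA and 12.80, 12.82 and 12.74 with the scrambled construct and fell by 0.53 log2 units (adjusted p = 7.94e-05), also against all 6 scrambled arrays (−0.46, adjusted p = 0.00190). Keap1 measured 0.05 (adjusted p = 0.651), and Bach1, a repressor at the same elements, fell by 0.72 log2 units (adjusted p = 1.57e-05). Among enzymes that reduce quinones and carbonyls, Nqo1, a quinone reductase, had log2 signals of 8.79, 8.74 and 8.91 with the shRNA and 10.47, 10.48 and 10.76 with the scrambled construct and fell by 1.76 log2 units (SE 0.0905, adjusted p = 1.26e-06). It measured −0.69 against all 6 scrambled arrays (adjusted p = 0.431). Cbr3, a carbonyl reductase, had log2 signals of 6.73, 6.21 and 6.32 with the shRNA and 8.46, 8.31 and 8.35 with the scrambled construct and fell by 1.95 log2 units (adjusted p = 6.15e-06), and this fall was called against all 6 (−1.39, adjusted p = 0.00866). Its relative Cbr1 measured 0.00 (adjusted p = 0.999). Aldh3a1, an aldehyde dehydrogenase, fell by 1.39 log2 units (adjusted p = 3.84e-06). Of 10 glutathione genes 8 fell and 1 rose, the latter being Slc7a11, which the ATF4 group also holds. Gsta4 and Gstm1, glutathione transferases, fell by 1.24 and 1.00 log2 units (adjusted p = 5.72e-05 and 5.14e-05), and Gclc, the enzyme that starts glutathione synthesis, fell by 0.64 (adjusted p = 3.12e-05). Gclm, its partner subunit, fell by 0.24 (adjusted p = 0.0479) and turned to 0.32 against all 6 scrambled arrays (adjusted p = 0.484). Srxn1, sulfiredoxin, had log2 signals of 9.31, 9.22 and 9.22 with the shRNA and 10.49, 10.35 and 10.67 with the scrambled construct and fell by 1.25 log2 units (adjusted p = 7.34e-06), Osgin1 fell by 0.96 and Hmox1, heme oxygenase, by 0.52 (adjusted p = 0.000126 and 0.000582). Idh1 and Pgd, which make NADPH, fell by 1.43 and 0.89 log2 units (adjusted p = 2.21e-05 and 9.97e-06). Gclm was not called without shRNA replicates 1, 2 or 3 or scrambled replicate 3 (adjusted p from 0.0894 to 0.165). Bach1, Gsta4, Gclc, Idh1 and Pgd were not called against all 6 scrambled arrays, with log2 changes from −0.76 to −0.27.

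Most enzymes of cholesterol synthesis fell. SREBP2, encoded by Srebf2, is released from the endoplasmic reticulum when sterol is low and switches on the enzymes from acetyl-CoA to cholesterol. Of 16 measured enzymes 13 fell and none rose at an adjusted p under 0.05 (81.2% called, against 20.0% of all genes). The falls numbered 14 without scrambled replicate 3. Against all 6 scrambled arrays 4 of the 16 fell, and in the whole group of 25, sensors and uptake included, the scrambled arrays of the LL34 set lay a median of 0.49 log2 units above those of the NANCI set. A sterol element was searched on both strands as TCACNCCAC and found in 1.04% of all promoters and in 1 of the 28 promoters of the group (3.57%), that of Hmgcs1, which makes HMG-CoA. Its promoter is shown with the element, 137 bases before the start, in capitals.
Hmgcs1, chr13:119690101-119690350, plus strand: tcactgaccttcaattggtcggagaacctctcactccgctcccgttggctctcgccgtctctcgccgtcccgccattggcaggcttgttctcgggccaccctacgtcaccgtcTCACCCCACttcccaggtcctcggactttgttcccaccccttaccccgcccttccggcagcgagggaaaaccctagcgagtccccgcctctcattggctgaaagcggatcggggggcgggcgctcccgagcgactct
Hmgcs1 had log2 signals of 10.07, 10.00 and 10.09 with the shRNA and 11.59, 11.66 and 11.21 with the scrambled construct. Scrambled replicate 3 was the lowest of the scrambled values and still above the shRNA arrays, and Hmgcs1 fell by 1.43 log2 units (SE 0.0987, adjusted p = 6.15e-06), and measured −0.61 against all 6 (adjusted p = 0.370). Cyp51, which removes a methyl group of lanosterol, had log2 signals of 9.11, 9.00 and 9.24 with the shRNA and 11.06, 11.12 and 10.51 with the scrambled construct and fell by 1.77 log2 units (adjusted p = 1.92e-05). Sqle, squalene epoxidase, had log2 signals of 9.43, 9.34 and 9.46 with the shRNA and 10.71, 10.74 and 10.41 with the scrambled construct and fell by 1.21 log2 units (adjusted p = 1.16e-05). Msmo1, a sterol methyl oxidase, fell by 1.18, Fdps and Fdft1, the farnesyl enzymes, by 0.75 and 0.65, and Nsdhl by 0.73 log2 units (adjusted p at most 0.00134). Pmvk, Ebp and Dhcr7 measured −0.04, −0.11 and −0.33 and did not pass, but Dhcr7 was called without scrambled replicate 3 (−0.47, adjusted p = 0.00198). Srebf2 itself had log2 signals of 11.13, 11.20 and 11.04 with the shRNA and 11.94, 12.02 and 11.98 with the scrambled construct and fell by 0.86 log2 units (adjusted p = 5.03e-05), and Srebf1 by 0.47 (adjusted p = 0.00142), both also against all 6. Insig1, which holds SREBP back and is its target, had log2 signals of 11.54, 11.51 and 11.48 with the shRNA and 12.68, 12.76 and 12.40 with the scrambled construct and fell by 1.11 log2 units (adjusted p = 1.20e-05). Npc1, the lysosomal cholesterol exporter, had log2 signals of 11.05, 11.07 and 11.09 with the shRNA and 10.30, 10.23 and 10.19 with the scrambled construct and rose by 0.83 log2 units (adjusted p = 7.62e-06), and Abca1, the efflux pump, rose by 0.44 (adjusted p = 0.00904), both also called against all 6. A second, dim Npc1 probe set measured −0.09 (adjusted p = 0.685). Cyp51, Sqle, Fdft1 and Nsdhl were not called against all 6 scrambled arrays, with log2 changes from −1.03 to −0.20.

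**Figure D3:**
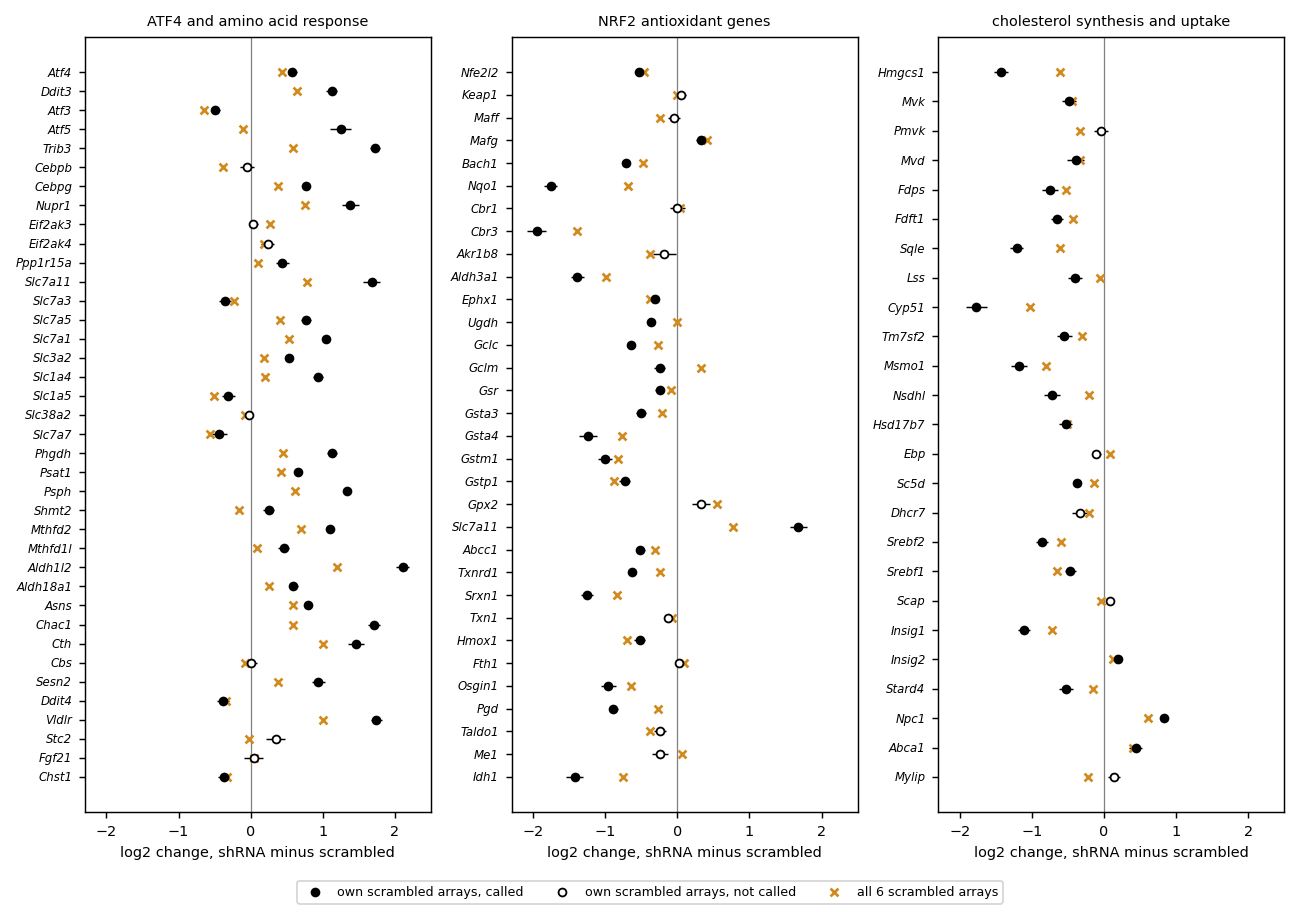
Log2 change, shRNA minus scrambled (horizontal axis), of each measured gene (rows) of the ATF4, NRF2 and cholesterol groups. Circles with SE bars are changes against the LL34 scrambled arrays, filled where called, and crosses are changes against all 6 scrambled arrays after quantile normalization, where the ATF4 group has a median of 0.26 in place of 0.63.

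Fatty acid synthesis fell too. Of 14 genes of fatty acid synthesis and activation 10 fell and none rose at an adjusted p under 0.05. These calls made 71.4% of the 14, against 20.0% of all genes called. The falls numbered 11 without scrambled replicate 3 and 6 against all 6 scrambled arrays. Fasn, fatty acid synthase, had log2 signals of 11.21, 11.22 and 11.20 with the shRNA and 12.10, 12.16 and 12.12 with the scrambled construct and fell by 0.91 log2 units (SE 0.0623, adjusted p = 5.89e-06). Elovl6 and Elovl5, elongases, fell by 1.41 and 0.70 log2 units (adjusted p = 4.81e-05 and 6.15e-06), Acss2, which activates acetate, by 1.15 (adjusted p = 0.000109), and Acsl5, which activates long-chain acids, by 0.59 (adjusted p = 0.000290). Slc25a1, which exports citrate from mitochondria, fell by 0.57 log2 units (adjusted p = 0.000151). Among 13 glycerolipid genes 3 rose and 1 fell, or 3 and 2 without scrambled replicate 3. Glycolysis showed 6 falls among 14 enzymes and transporters, with Tpi1, triose phosphate isomerase, at log2 signals of 11.36, 11.41 and 11.32 with the shRNA and 12.06, 12.08 and 12.03 with the scrambled construct, a fall of 0.69 log2 units (adjusted p = 1.46e-05). Pgk1 and Ldha, later glycolytic enzymes, fell by 0.27 and 0.37 log2 units and Pfkfb3, which makes an activator of glycolysis, by 0.62 (adjusted p at most 0.00818). Of the 27 glycolysis and hypoxia genes together 9 fell (33.3% called, against 20.0% of all genes). The same number fell without scrambled replicate 3, and 2 fell against all 6 scrambled arrays, Pfkfb3 among them (−0.67, adjusted p = 6.64e-05). Elovl6, Acss2, Acsl5, Tpi1, Pgk1 and Ldha were not called against all 6 scrambled arrays, with log2 changes from −0.88 to −0.06.

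More genes fell than rose in each of 5 signalling groups, although only in the BMP group did most members pass as lower. In the TGF-beta group of 20, 8 fell and 2 rose, or 9 and 1 without scrambled replicate 3 and also against all 6. Thbs1, thrombospondin, a matrix protein that activates latent TGF-beta, had log2 signals of 8.56, 8.74 and 8.66 with the shRNA and 10.96, 10.79 and 10.82 with the scrambled construct and fell by 2.20 log2 units (SE 0.131, adjusted p = 2.65e-06). Every shRNA array of Thbs1 lay at least 2 log2 units below every scrambled array. The ligands moved apart, with Tgfb2 and Tgfb3 falling by 0.63 and 0.80 log2 units and Tgfb1 rising by 0.73 (adjusted p = 2.93e-05, 2.30e-05 and 0.000284). Ccn2, a matricellular target, fell by 0.53 log2 units (adjusted p = 0.000167), while another Ccn2 probe set measured 0.03 (limma adjusted p = 0.908). In the BMP group of 17, 9 fell and 1 rose (median log2 change −0.36), or 10 and 1 without scrambled replicate 3 and 4 and 1 against all 6. The ligand gene Bmp2 had log2 signals of 6.35, 6.35 and 6.45 with the shRNA and 8.10, 7.84 and 7.80 with the scrambled construct and fell by 1.53 log2 units (adjusted p = 4.79e-05). Nog, the BMP antagonist noggin, had log2 signals of 7.08, 7.08 and 7.36 with the shRNA and 8.36, 8.29 and 8.29 with the scrambled construct and fell by 1.14 log2 units (adjusted p = 7.93e-06), and Fstl1, a secreted modulator, fell by 1.09 (adjusted p = 1.69e-06). The direct targets Id1 and Smad6 fell by 0.73 and 0.83 log2 units (adjusted p = 0.000125 and 0.000161), neither called against all 6 scrambled arrays.

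In the Wnt group of 24, 8 fell and 2 rose, 7 and 1 without scrambled replicate 3. Ccnd1, cyclin D1, had log2 signals of 10.78, 10.70 and 10.81 with the shRNA and 11.91, 11.88 and 11.91 with the scrambled construct and fell by 1.14 log2 units (SE 0.0540, adjusted p = 8.52e-07). Apcdd1 and Rnf43, inhibitors of Wnt at the membrane, fell by 0.59 and 0.41 log2 units, the ligand genes Wnt10a and Wnt7a by 0.60 and 0.39, and the coreceptor gene Lrp5 rose by 0.45 (adjusted p at most 0.00109). In the FGF and ERK group of 28, 10 fell and 3 rose, or 10 and 2 without scrambled replicate 3. Fgfr2, the receptor that drives lung branching, had log2 signals of 7.10, 6.98 and 6.90 with the shRNA and 8.07, 8.01 and 7.54 with the scrambled construct and fell by 0.88 log2 units (adjusted p = 0.000947), and measured −0.25 against all 6 scrambled arrays (adjusted p = 0.644). Fgfr3 had log2 signals of 8.41, 8.12 and 8.50 with the shRNA and 9.27, 9.25 and 9.28 with the scrambled construct and fell by 0.93 log2 units (adjusted p = 8.42e-05). The receptor genes Erbb3 and Ret fell by 0.60 and 0.59, and Spry1 and Phlda1, feedback genes of ERK, by 0.64 and 0.84 log2 units (adjusted p at most 0.000825). In the Notch group of 14, 4 fell and 1 rose, or 4 and 0 without scrambled replicate 3. Lfng, the fringe enzyme that sugars Notch, had log2 signals of 8.41, 8.45 and 8.41 with the shRNA and 9.20, 9.23 and 9.33 with the scrambled construct and fell by 0.83 log2 units (adjusted p = 5.22e-06), and the target Hes1 and ligand Jag1 fell by 0.51 and 0.55 (adjusted p = 0.00162 and 0.00536).

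Semaphorins and their receptors were called lower in like numbers with each choice of scrambled arrays. Semaphorins are guidance ligands, plexins and neuropilins their receptors, and the lung epithelium expresses both during branching. Of 27 measured genes 16 fell and 2 rose (66.7% called, against 20.0% of all genes, median log2 change −0.36). The counts were 16 and 2 without scrambled replicate 3, and 16 and 0 against all 6 scrambled arrays. Among the 10 receptors 8 fell and none rose at an adjusted p under 0.05. Plxnb3, a receptor of semaphorin 5, had log2 signals of 7.05, 7.10 and 6.81 with the shRNA and 9.39, 9.47 and 9.20 with the scrambled construct. It fell by 2.37 log2 units (SE 0.129, adjusted p = 1.72e-06), with more than 2 log2 units between the nearest arrays of the groups. Plxna2 had log2 signals of 9.24, 9.29 and 9.22 with the shRNA and 10.36, 10.25 and 10.02 with the scrambled construct and fell by 0.97 log2 units (adjusted p = 2.07e-05). Nrp1, a neuropilin that also binds VEGF, had log2 signals of 11.14, 11.19 and 11.06 with the shRNA and 11.90, 11.99 and 11.86 with the scrambled construct and fell by 0.79 log2 units (adjusted p = 2.22e-05). Of the ligands, Sema3c, which acts in lung branching, had log2 signals of 7.90, 7.75 and 7.65 with the shRNA and 8.96, 8.84 and 8.67 with the scrambled construct and fell by 1.05 log2 units (adjusted p = 4.97e-05). Sema4f fell by 0.78 (adjusted p = 0.000150), and Sema4d rose by 0.62 (adjusted p = 0.000224) but measured 0.08 against all 6 scrambled arrays (adjusted p = 0.830).

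Among interferon and NF-kB genes there were falls and no rise that passed the test. The share called was 44.4% of interferon and 40.7% of NF-kB genes, against 20.0% of all genes. Of 27 interferon response genes 12 fell, 13 fell without scrambled replicate 3 and 12 fell against all 6 scrambled arrays, and no member was called higher in any of these fits. Ifit1, an antiviral RNA-binding protein, had log2 signals of 7.24, 7.08 and 6.83 with the shRNA and 8.65, 8.21 and 8.18 with the scrambled construct and fell by 1.30 log2 units (SE 0.181, adjusted p = 0.000612). Oasl1 and Oasl2, relatives of an RNA sensor enzyme, fell by 0.88 and 0.90 log2 units, Ifih1, the sensor MDA5, by 0.66 and the GTPase gene Gbp3 by 0.60 (adjusted p at most 0.00101). Irf9, part of the interferon-activated factor, fell by 0.50 log2 units (adjusted p = 0.00138). Of 27 NF-kB genes 11 fell, 9 without scrambled replicate 3 and 10 against all 6, again with no member called higher. NF-kB is a factor of inflammation held by inhibitors that it induces itself. The factor genes Nfkb2 and Rela fell by 0.67 and 0.44 log2 units and the inhibitor gene Nfkbie by 0.76 (adjusted p at most 0.000481). The chemokine gene Ccl2 had log2 signals of 6.66, 6.89 and 6.57 with the shRNA and 8.04, 7.72 and 7.71 with the scrambled construct and fell by 1.11 log2 units (adjusted p = 0.000155), without overlap. Cxcl10, a chemokine of the interferon response, had log2 signals of 7.16, 7.30 and 7.15 with the shRNA and 8.10, 8.06 and 8.14 with the scrambled construct and fell by 0.90 log2 units (adjusted p = 0.000171). Csf1, the macrophage growth factor, fell by 0.50 log2 units (adjusted p = 0.000497). In the JAK-STAT feedback group 4 of 20 rose and 4 fell, 3 and 4 without scrambled replicate 3. Socs2, an inhibitor of growth hormone signalling, had log2 signals of 8.72, 8.52 and 8.56 with the shRNA and 7.08, 6.98 and 6.11 with the scrambled construct, where scrambled replicate 3 lay far below the other 2. Its rise was 1.88 log2 units (adjusted p = 0.000131), 1.57 without that array and 0.88 against all 6 scrambled arrays (adjusted p = 0.226), and a second probe set measured 0.15 (adjusted p = 0.380). Socs3, an inhibitor of IL-6 signalling, fell by 0.51 log2 units (adjusted p = 0.000648), while another Socs3 probe set measured −0.18 (limma adjusted p = 0.482).

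Integrins and basement membrane genes moved both ways, 4 of 27 higher and 7 lower (40.7% called, against 20.0% of all genes). The counts were the same without scrambled replicate 3, and 1 and 8 against all 6. Itga3, a laminin-binding integrin of lung epithelium, had log2 signals of 9.95, 9.82 and 9.93 with the shRNA and 11.38, 11.34 and 11.13 with the scrambled construct and fell by 1.38 log2 units (SE 0.0836, adjusted p = 3.18e-06). Itgav, a chain of integrins that release TGF-beta, fell by 0.55 log2 units and Hspg2, the heparan sulfate proteoglycan perlecan, by 0.54 (adjusted p = 3.88e-05 and 4.41e-05). Another Itgav probe set measured −0.10 (limma adjusted p = 0.427). Lamb1, a laminin chain, had log2 signals of 9.50, 9.34 and 9.53 with the shRNA and 8.84, 8.78 and 8.44 with the scrambled construct and rose by 0.77 log2 units (adjusted p = 0.000317), and Fn1, fibronectin, rose by 0.38 (adjusted p = 0.00281), neither called against all 6 scrambled arrays.

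Mitosis genes were mostly lower against the LL34 scrambled arrays and not against the pooled ones. Of 23 mitosis genes 13 fell and 1 rose (60.9% called, against 20.0% of all genes, median log2 change −0.27). The counts were the same without scrambled replicate 3. Against all 6 scrambled arrays none fell and 1 rose (median 0.02), and in these genes the scrambled arrays of the LL34 set lay a median of 0.34 log2 units above those of the NANCI set. Cdk1, the kinase that starts mitosis, had log2 signals of 11.69, 11.56 and 11.69 with the shRNA and 12.08, 12.06 and 12.03 with the scrambled construct and fell by 0.41 log2 units (adjusted p = 0.000847). Cdc20, Kif23, Kif20a and Bub1b, which act in anaphase, cytokinesis and the spindle checkpoint, fell by 0.39, 0.40, 0.34 and 0.42 log2 units (adjusted p at most 0.00250), of which Kif20a and Bub1b turned to 0.02 and 0.03 against all 6 scrambled arrays, and the centrosome kinase gene Nek2 rose by 0.48 (adjusted p = 0.000723). Of 23 replication genes 4 rose and 5 fell (39.1% called), 3 and 5 without scrambled replicate 3 and 0 and 4 against all 6. Uhrf1, which keeps DNA methylation at the fork, had log2 signals of 9.46, 9.38 and 9.51 with the shRNA and 10.15, 10.26 and 10.26 with the scrambled construct and fell by 0.78 log2 units (adjusted p = 2.23e-05), and Mcm7, a helicase subunit, fell by 0.53 (adjusted p = 8.25e-05). Targets of p53 mostly did not pass, with 4 of 21 higher and 2 lower, or 3 and 3 without scrambled replicate 3. The share called was 28.6%, against 20.0% of all genes. With the NANCI shRNA 17 of these 21 genes rose and 2 fell. The large T antigen of this line binds p53, and whether it bears on these counts was not tested. Cdkn1a, the cell cycle inhibitor p21, had log2 signals of 12.20, 12.13 and 12.12 with the shRNA and 11.80, 11.68 and 11.82 with the scrambled construct and rose by 0.38 log2 units (adjusted p = 0.00174), and measured 0.17 against all 6 (adjusted p = 0.346), and Sesn2, which ATF4 also induces, rose by 0.94 (adjusted p = 4.86e-05). Of 23 heat shock and immediate early genes 2 rose and 7 fell (39.1% called), 2 and 6 without scrambled replicate 3. The small heat shock gene Hspb1 fell by 0.82 and the immediate early genes Ier3 and Klf6 by 0.77 and 0.57 log2 units (adjusted p at most 0.000188). Another Hspb1 probe set measured −0.15 (limma adjusted p = 0.472). Cdk1, Cdc20, Kif23 and Sesn2 were not called against all 6 scrambled arrays, with log2 changes from −0.28 to 0.39.

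Many mitochondrial and lysosomal genes rose. Of 33 genes of oxidative phosphorylation 14 rose and none fell at an adjusted p under 0.05 (median log2 change 0.20). These calls made 42.4% of the group, against 20.0% of all genes called. Without scrambled replicate 3, 9 rose, and against all 6 scrambled arrays 5 rose, again with no fall called. Of 12 complex I subunits, which pass electrons from NADH, 9 rose, or 6 without scrambled replicate 3. Cox6a2 encodes the heart and muscle form of a cytochrome oxidase subunit and had log2 signals of 10.80, 10.91 and 10.74 with the shRNA and 8.59, 8.52 and 8.53 with the scrambled construct. It rose by 2.27 log2 units (SE 0.0985, adjusted p = 4.09e-07), and measured 1.27 against all 6 scrambled arrays (adjusted p = 0.106), and no other member changed by as much as 1. Uqcrq, a complex III subunit, rose by 0.80, the complex I genes Ndufb3 and Ndufb5 by 0.59 and 0.36 and the complex II gene Sdhd by 0.44 log2 units (adjusted p at most 0.00268). Of 24 lysosome and autophagy genes 9 rose and 3 fell, 7 and 3 without scrambled replicate 3 and 8 and 2 against all 6. Ctsl, cathepsin L, had log2 signals of 11.54, 11.43 and 11.55 with the shRNA and 10.82, 10.91 and 10.94 with the scrambled construct and rose by 0.61 log2 units (adjusted p = 8.57e-05). Hexa, a hexosaminidase, rose by 0.65 and Atp6v1h, of the proton pump, by 0.46 log2 units, while Wipi1, an autophagy protein, fell by 0.49 (adjusted p at most 0.000978). Of 25 cytosolic ribosomal protein genes 4 rose and 1 fell, 4 and 0 without scrambled replicate 3 and 1 and 0 against all 6. The share called, 20.0%, was that of all genes. Among them Rpl13 and Rpl14 rose by 0.48 and 0.41 log2 units (adjusted p = 0.000829 and 0.000934). A dimmer Rpl13 probe set measured 0.36 (adjusted p = 0.110). Uqcrq, Ndufb3, Wipi1 and Rpl13 were not called against all 6 scrambled arrays, with log2 changes from −0.33 to 0.33.

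Few markers of other cell types passed the test. No member passed the test among 9 leukocyte, 9 ciliated and 12 basal and airway secretory markers, against 20.0% of all genes, and without scrambled replicate 3 the only calls among them were 2 falls of leukocyte markers. In that order, their means on the scrambled arrays ran from 5.11 to 8.51, 4.91 to 7.58 and 4.12 to 8.03. The array median was 6.58, and the share called among genes of like signal was not computed. Among 10 endothelial markers 1 fell, Tek, the angiopoietin receptor, with log2 signals of 6.62, 6.84 and 6.85 with the shRNA and 8.28, 8.20 and 7.61 with the scrambled construct and a log2 change of −1.26 (adjusted p = 0.000715). Among 12 mesenchymal markers 1 fell, Vim, vimentin, by 0.28 log2 units (adjusted p = 0.00719). A second Vim probe set measured −0.37 (adjusted p = 0.0551). The summed log2 signal of the endothelial markers ran from 61.2 to 61.8 on the shRNA arrays and from 63.0 to 64.1 on the scrambled arrays, and that of the mesenchymal markers from 88.8 to 89.0 and from 88.6 to 90.8. The sum of the leukocyte markers ran from 54.6 to 55.4 on the shRNA arrays and from 56.0 to 57.2 on the scrambled arrays. That of the basal and airway secretory markers ran from 68.6 to 68.9 and from 69.8 to 70.1, and that of the ciliated markers from 52.8 to 53.2 and from 53.1 to 54.3. The sums of the endothelial, leukocyte and basal and airway secretory markers were thus lower on every shRNA array, while those of the mesenchymal and ciliated markers overlapped. The sum over all 22180 genes was also lower on every shRNA array, at 164273 to 164363 against 164585 to 164991 on the scrambled arrays. Sums over such different numbers of genes do not compare the fall per gene. The median log2 change was −0.06 for endothelial, −0.13 for leukocyte and −0.07 for basal and airway secretory markers, and −0.02 over all genes. The part of these cell types in the changes was not tested. Vim was not called against all 6 scrambled arrays, with a log2 change of −0.09.

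**Figure D4:**
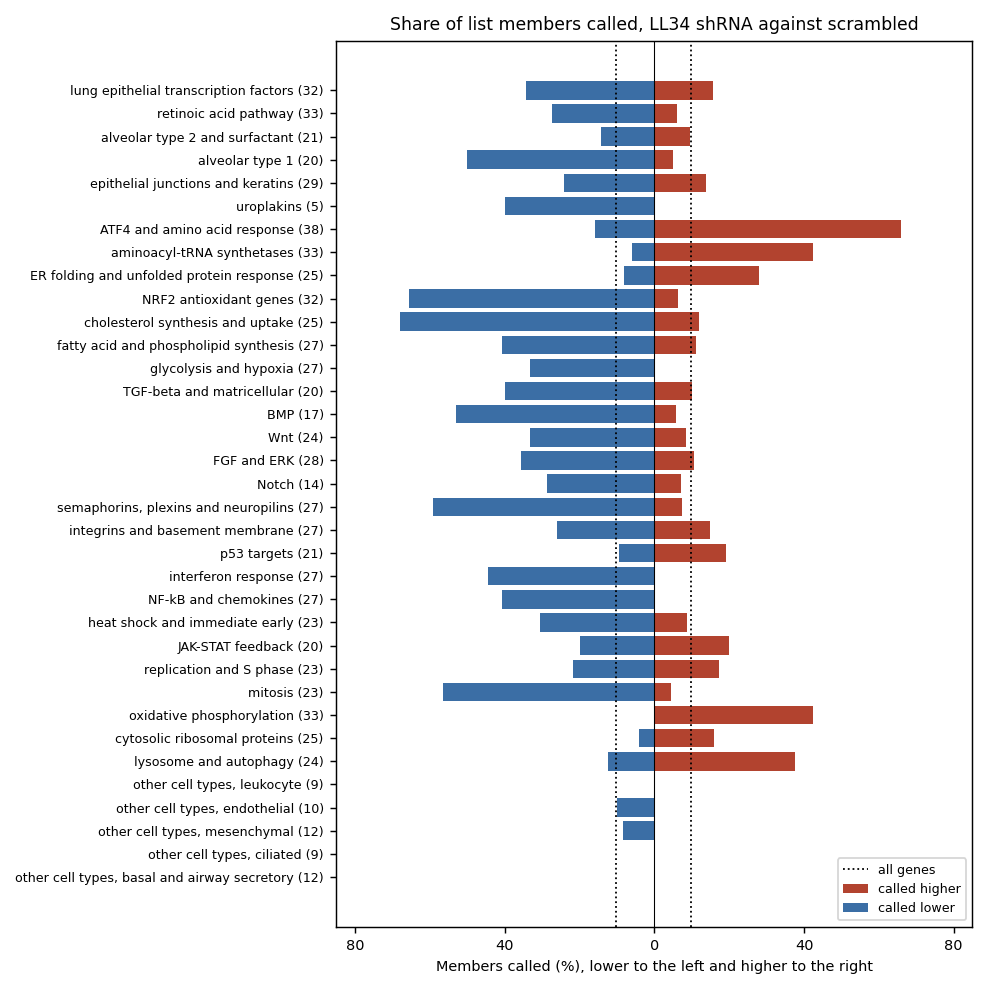
Share of the measured members of each gene group (rows, number measured in parentheses) called higher (red, to the right) or lower (blue, to the left) in cells given the LL34 shRNA. Dotted lines mark the shares among all genes, 9.77% higher and 10.3% lower. Many groups exceed them, among them the ATF4 group to the right and the cholesterol, NRF2, semaphorin and mitosis groups to the left.

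Beyond these groups, the genes with the largest changes held several secreted and membrane proteins. They were chosen by rank among called genes whose groups do not overlap, as holds for 35.3% of all genes, so their size and separation are a description. Adjusted p was at most 0.000215 for each gene named in this paragraph. Glul, glutamine synthetase, was among the 30 largest falls, with log2 signals of 9.52, 9.59 and 9.49 with the shRNA and 11.41, 11.44 and 11.31 with the scrambled construct and a log2 change of −1.85. A second, dim Glul probe set measured −0.28. Ptprb, a receptor phosphatase first known from endothelium, had log2 signals of 8.74, 8.83 and 8.60 with the shRNA and 10.63, 10.63 and 10.31 with the scrambled construct and a log2 change of −1.80. Nppb, a natriuretic peptide, had log2 signals of 7.21, 7.20 and 7.34 with the shRNA and 9.21, 8.99 and 8.88 with the scrambled construct and a log2 change of −1.78. Scel, a cornified envelope protein that also marks type 1 cells, measured −1.84, Fat4, a giant cadherin, −1.71 (a second, dim probe set −0.14), the kinase gene Sgk1 −1.69, the cell cycle factor gene E2f5 −1.71, the acute phase gene Orm1 −1.73 and Cyp1b1, a P450 that also oxidises retinol, −1.56 on the log2 scale. Each of these 9 genes was also called lower against all 6 scrambled arrays, with log2 changes from −2.12 (Nppb) to −1.07 (Sgk1). Zbtb18, a transcriptional repressor, was among the 30 largest rises, with log2 signals of 9.94, 9.89 and 9.97 with the shRNA and 8.55, 8.49 and 8.48 with the scrambled construct and a log2 change of 1.42. Mmp13, a collagenase, had log2 signals of 7.72, 7.58 and 7.53 with the shRNA and 6.41, 6.48 and 5.84 with the scrambled construct and a log2 change of 1.37. In Mmp13 scrambled replicate 3 was the lowest, and without it the log2 change was 1.17. Tc2n measured 1.57, Pck2, the mitochondrial enzyme from oxaloacetate to phosphoenolpyruvate, 1.34, Acot2, a mitochondrial thioesterase, 1.28, Gch1, the first enzyme of biopterin synthesis, 1.29, the circadian gene Ciart 1.24, Acvr1b, an activin receptor, 1.15 and the membrane metalloprotease gene Mmp17 1.14. Against all 6 scrambled arrays Mmp13, Tc2n and Zbtb18 were called (1.53, 1.37 and 0.88) and Pck2, Acot2, Gch1, Ciart, Acvr1b and Mmp17 were not (0.44 to 0.58).

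One microRNA gene was among these falls. The let-7 microRNAs repress messengers by pairing through a seed at bases 2 to 8, printed here in capitals for the RefSeq mature sequence that Mirlet7c-1 and Mirlet7c-2 both encode.
mmu-let-7c-5p: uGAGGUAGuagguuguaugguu
Mirlet7c-2 had log2 signals of 4.94, 6.25 and 6.24 with the shRNA and 7.13, 7.67 and 7.33 with the scrambled construct, with shRNA replicate 1 far below the other 2 shRNA arrays. Its log2 change was −1.57 (SE 0.335, adjusted p = 0.00810), without overlap. The probe set of Mirlet7c-1 measured 0.36 (adjusted p = 0.0699) and was called higher without scrambled replicate 1 (0.50, limma adjusted p = 0.00754). None of the other 9 let-7 genes with a probe set was called with all 6 arrays. Mirlet7e measured −0.41 (adjusted p = 0.409) and was called lower without scrambled replicate 3 (−0.77, limma adjusted p = 0.0221). The cDNA was primed with poly(T), which reads transcripts with a poly(A) tail, so these signals are not levels of the mature microRNA.

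The changes differed from those after NANCI knockdown for many genes. The difference of the log2 changes was called for 5409 genes (24.4%), with the LL34 change above for 12.3% and below for 12.0%, and for 2801 of the 4440 genes called with the LL34 shRNA. The NANCI shRNA changed 26.8% of genes. Both comparisons have their own scrambled arrays, whose difference enters this test. Aldh1a1 rose by 0.65 log2 units with the NANCI shRNA, and the difference, LL34 minus NANCI, was −3.69 (adjusted p = 3.81e-07). Foxa1 fell with both, with log2 changes of −1.37 and −0.52, and the difference was −0.84 (adjusted p = 0.000132). Nkx2-1 differed the other way, since with the NANCI shRNA it fell by 1.00 (difference 0.73, adjusted p = 0.000529). Among the retinoic acid genes, Cyp26b1 and Rarg also differed (0.33 and 0.49 with the NANCI shRNA, adjusted p of the difference = 0.000109 and 3.24e-05), whereas for Aldh1a3 the log2 changes were −0.44 and −0.46 (difference 0.02, SE 0.117). In the ATF4 group the LL34 change was above the NANCI change in 25 of 38 genes and below it in 3, and in the NRF2 group below it in 24 of 32 and above it in 1. Semaphorin and plexin genes differed in 13 of 27, 6 with the LL34 change above and 7 below. Sema4b, −0.43 against 0.59, and Plxnb3, −2.37 against 0.35, had differences with adjusted p of 6.28e-06 and 3.58e-06, and Plxna2 and Nrp1 had log2 changes of −0.97 and −0.95 and of −0.79 and −0.88 with no called difference (adjusted p = 0.941 and 0.597).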

How the data were processed

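Per the labels, total RNA was taken from MLE12 cells in 4 groups of 3, and 100 ng was reverse transcribed with a poly(T) primer, amplified and hybridised to 1-colour mouse arrays. The deposited values are log2 intensities of 41345 probe sets on 12 arrays, and the submitters' processing notes name oligo, RMA (background correction, quantile normalization and probe summary) and limma, without versions. Quantile distributions and exact ties differed between the LL34 and the NANCI arrays, so a joint normalization cannot be assumed. Background correction and summary could not be redone, and array number and signal limit the precision.

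The deposited log2 values were fitted here with limma 3.58.1 in R 4.3.3, with 4 group means on all 12 arrays, 8 residual degrees of freedom and Benjamini-Hochberg adjustment over 41345 probe sets at 0.05. Changes are differences of group mean log2 values, and no pseudocount or filter was used. The shares given for all genes therefore include genes at low signal. Platform annotation gave 1 symbol to 23521 probe sets, several to 1814 and none to 16010. For the 1082 genes with several probe sets the brightest over 12 arrays was used. Of 873 entries of 35 gene lists, 802 were measured.

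The comparison, the members and the lists were chosen with earlier results of these data known. Named genes were Aldh1a1, Foxa1, Nkx2-1, the 30 largest rises and 30 largest falls among called genes without overlap of the groups, up to 6 called members with the smallest p of each list, and any member of the retinoic acid, transcription factor, surfactant, ATF4, NRF2 and cholesterol lists. The fit was tested on simulated data. Alternatives were the 6 LL34 arrays alone, other normalizations, a filter on dim probe sets, a replicate block, array weights, a trended prior, leaving out tied probe sets or each array, averaging probe sets and pooling all 6 scrambled arrays. One more, a fit of the 5 LL34 arrays without scrambled replicate 3, was chosen after seeing the data. Replicate numbers did not pair the samples. Promoters and the microRNA are from RefSeq on GRCm38.p6.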

Additional observations from a re-analysis of the deposited data

How the results depend on the processing

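Pooling all 6 scrambled arrays as control after quantile normalization called 2646 probe sets higher where the LL34 scrambled arrays gave 4011, and 1152 genes higher where they gave 2166, and the cause was not tested. Of 254 named genes, it turned Atf5 (−0.11), Bub1b (0.031), Gclm (0.32), Irx2 (−0.067), Kif20a (0.022), Klf5 (−0.066) and Shmt2 (−0.16), none of them then called, and ended the call of 83 more. With 1 LL34 array left out, 2610 to 4171 probe sets were called higher and 2094 to 2980 lower, and 1461 to 2141 genes higher and 1775 to 2433 lower. The lowest counts of rises came without shRNA replicates 1 or 3. Replicate numbers did not pair the arrays, since the deviations of same-numbered arrays correlated at 0.045, −0.050 and −0.125. A fit that took the replicate number as a block called 3083 probe sets higher and 2174 lower, and ended the call of 8 named genes. Centring each array on its median gave 3062 higher and 3035 lower, and array weights 4692 and 3662. The 6 LL34 arrays alone gave 2706 and 2127, the 5 without scrambled replicate 3 gave 3346 and 3001, and averaging the probe sets of a gene gave 2491 genes higher and 2483 lower. In these fits no named gene that was called changed direction. The difference to the NANCI change was called for 5409 genes and for 5781 after quantile normalization. Signals near background have no detection call in the files, so absence of a change in dim genes cannot be read as absence of the RNA.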

Other observations

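Some of the largest changes lay in genes outside the groups described above. They are given as values, chosen by their rank among genes called by limma whose groups do not overlap, with no grouping implied. Akr1c14, a hydroxysteroid dehydrogenase of the aldo-keto reductase family, had log2 signals of 6.80, 6.80 and 6.84 with the shRNA and 8.99, 8.67 and 8.33 with the scrambled construct and fell by 1.85 log2 units. Prelp, a leucine-rich repeat proteoglycan of matrix, had log2 signals of 8.43, 8.64 and 8.26 with the shRNA and 10.11, 10.19 and 9.88 with the scrambled construct and fell by 1.61. A second Prelp probe set measured −0.14. Ttyh3, a membrane protein of the tweety family, fell by 1.69 log2 units. Ttll7, a tubulin polyglutamylase, and Mamdc2 both fell by 1.67. Steap1, a membrane metalloreductase, had log2 signals of 7.73, 7.53 and 7.55 with the shRNA and 6.43, 6.12 and 6.26 with the scrambled construct and rose by 1.33 log2 units. Apmap, an adipocyte membrane protein, rose by 1.18, the secreted protein gene Fetub by 1.22 and Myct1, a target of MYC, by 1.35 log2 units (limma adjusted p at most 0.00113 for these 9 genes). Akr1c14, Fetub and Myct1 were not called against all 6 scrambled arrays, with log2 changes of −1.06, 0.74 and 0.49, and the other 6 were.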
